A study of Mus musculus with 6 samples.

Results

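Integrin and laminin subunit genes were described as 1 family in differentiating C2C12 cells, a mouse myoblast line that forms myotubes in low serum. The members were 35 genes chosen by name, 25 integrin subunits and 10 laminin chains, out of 55421 genes in the deposited count table. Both groups were C2C12 cells stably transfected with a GFP plasmid and selected with G418. The plasmid carried 5 CTG repeats in the normal group (CUG5) and 200 CTG repeats in the group that models myotonic dystrophy type 1 (DM1, CUG200). RNA was taken at differentiation day 4, with 3 libraries per group. Each group is a single selected line, without untransfected cells beside it, and whether it was a clone or a pool is not stated, so the repeat length and other differences between the lines cannot be told apart. The study calls the libraries of a group biological replicates and does not say whether they came from separate cultures or transfections. The p-values measure the spread between these libraries.

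Laminins are the trimers of an α, a β and a γ chain that form the first sheet of a basement membrane. Integrins are the αβ heterodimers through which a cell holds that sheet, and the α chain largely decides which ligand is bound. In skeletal muscle, laminin-211 (chains α2, β1, γ1) and integrin α7β1 form one of the main links between the myofiber and its basement membrane, and loss of the human α2 chain causes a congenital muscular dystrophy. The α4 and α5 chains are abundant in the basement membranes of developing muscle and of vessels.

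The libraries held 61707889 to 80957325 counts. A count here stands for 75 aligned bases, not for 1 read: the deposited coverage times transcript length, divided by 75, gave the deposited count to within 1 in every library for 99.2% of 14019 genes with a single transcript. The floor of 3 counts was worth 0.0371 to 0.0486 CPM (counts scaled to a common library size) and covers counting error only. Mitochondrial genes took 9.04% of the counts in CUG5 library 1 and 8.90% in CUG200 library 3, against 12.3% to 13.5% in the other 4 libraries. The myoblast label was checked on 12 skeletal muscle markers, all of which passed the filter on low counts. Their summed level was 9177 to 10129 CPM in the CUG5 libraries and 5299 to 6603 CPM in the CUG200 libraries. *Myog*, which drives myoblast differentiation, differed by -0.65 on the log2 scale (adjusted p = 0.00227), and 9 of the 12 markers fell while none rose (edgeR), where 8.73% of all genes tested were lower and 7.13% higher. The fusion gene *Mymx*, which did not pass (0.23, edgeR adjusted p = 0.0732), had all CUG200 libraries above all CUG5 libraries in CPM but not in TPM. The study measured this gene, as *Myomixer*, by RT-qPCR over differentiation and reported the other direction, lower in CUG200. The lower level of the muscle markers goes with the groups in every comparison below, and its part in the results was not tested. In bulk RNA, fewer cells of a type and less RNA per cell cannot be told apart.

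Levels of different genes were compared as TPM (transcript units scaled to a common total), which are divided by transcript length. The β1 integrin *Itgb1*, partner of most α chains in muscle, had the highest level of the members, at 525 ± 44.0 TPM in CUG5 and 565 ± 10.2 TPM in CUG200 (SD, n = 3). *Itga7*, the muscle laminin receptor chain, followed at 447 ± 31.9 and 371 ± 77.1 TPM. These genes made up 87.1% of the integrin β TPM and 77.9% of the integrin α TPM in CUG5. The next member by level, the fibronectin receptor chain *Itga5*, was at 53.2 ± 3.26 TPM in CUG5. Among laminins, *Lama5*, *Lama2*, *Lamb1*, *Lamb2* and *Lamc1* had means from 20.9 to 53.6 TPM in both groups, and *Lama3* and *Lamc3* stayed below 0.32 TPM in every library. *Itga9* and *Itgax* had 0 counts in all 6 libraries.

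**Figure D1:**
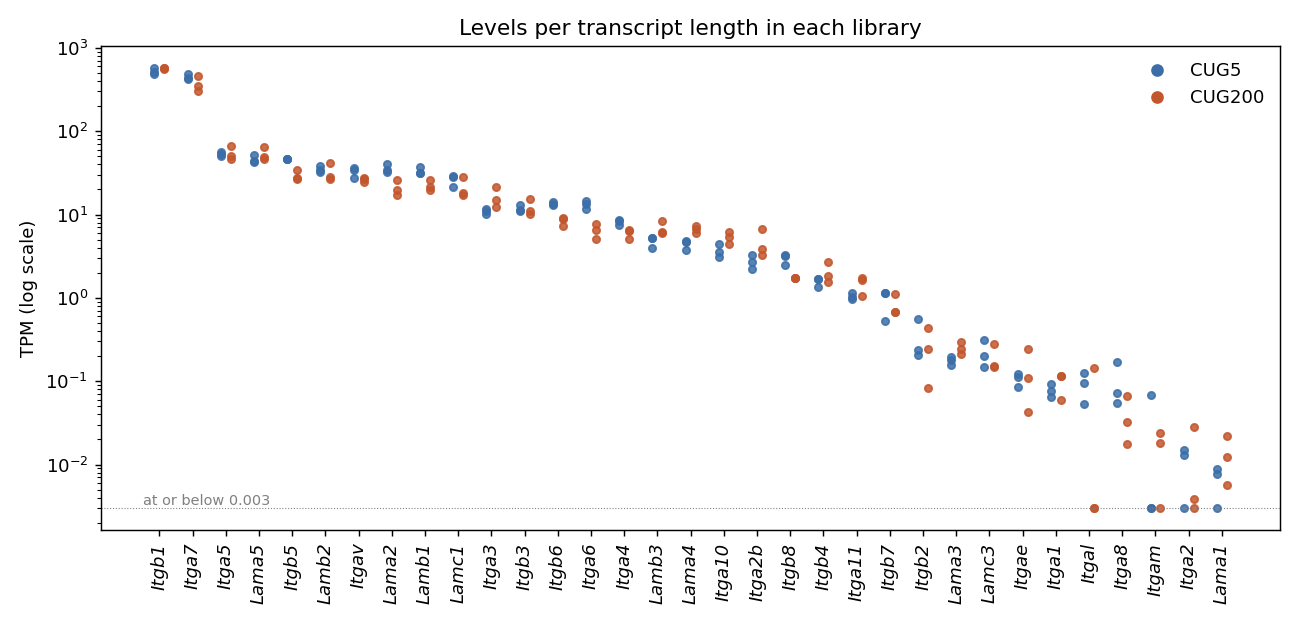
Level of each member in each library in the deposited TPM on a log axis, for the 33 members with a value above 0 (blue, CUG5; orange, CUG200; 3 points a group; values at or below 0.003 TPM are drawn at 0.003). *Itgb1* and *Itga7* lie between 305 and 574 TPM, and the other members lie below 66 TPM.

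For the comparison of groups, counts were scaled by the TMM method (trimmed mean of M-values) and compared by the quasi-likelihood method of edgeR, with p-values adjusted by Benjamini and Hochberg's procedure over all 19005 genes that passed the filter. Of the 35 members, 30 passed. The other 5 (*Itga2*, *Itga9*, *Itgam*, *Itgax* and *Lama1*) had at most 13 counts in any library. An adjusted p under 0.05 was found for 12 members (40.0% of those tested), against 15.9% of all genes tested. There were 6 higher in CUG200, where 7.13% of all genes were higher, and 6 lower, where 8.73% of all genes were lower. With an absolute log2 fold change over 1 as a further cutoff, 1 member was higher (*Itga2b*), against 1.36% of all genes, and 1 lower (*Itga6*), against 0.816%. The 3 libraries of each group did not overlap in TMM-scaled CPM for 16 tested members (53.3%), against 37.2% of all genes tested. The count of higher members moved with the analysis, and so did the counts over all genes, 1356 higher and 1660 lower with edgeR. On the deposited TPM without TMM scaling, as log2(TPM + 1), limma gave 0 higher and 5 lower members at an adjusted p under 0.05. Over all genes limma gave 427 higher and 816 lower there. At an unadjusted p under 0.05 limma gave 5 higher and 7 lower members, where edgeR gave 9 and 7. DESeq2 on the counts gave 7 higher and 6 lower members at an adjusted p under 0.05. Over the 16407 genes with an adjusted p, DESeq2 gave 1894 higher and 2123 lower. With TPM scaled by TMM, an analysis added after seeing the data, 4 members were higher and 5 lower, beside 1045 and 1179 genes. The median log2 fold change was 0.041 over the members and 0.015 over all genes. The family thus moved in both directions, within the laminins (3 higher, 2 lower of 9 tested) and within the integrins (3 higher, 4 lower of 21 tested).

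**Figure D2:**
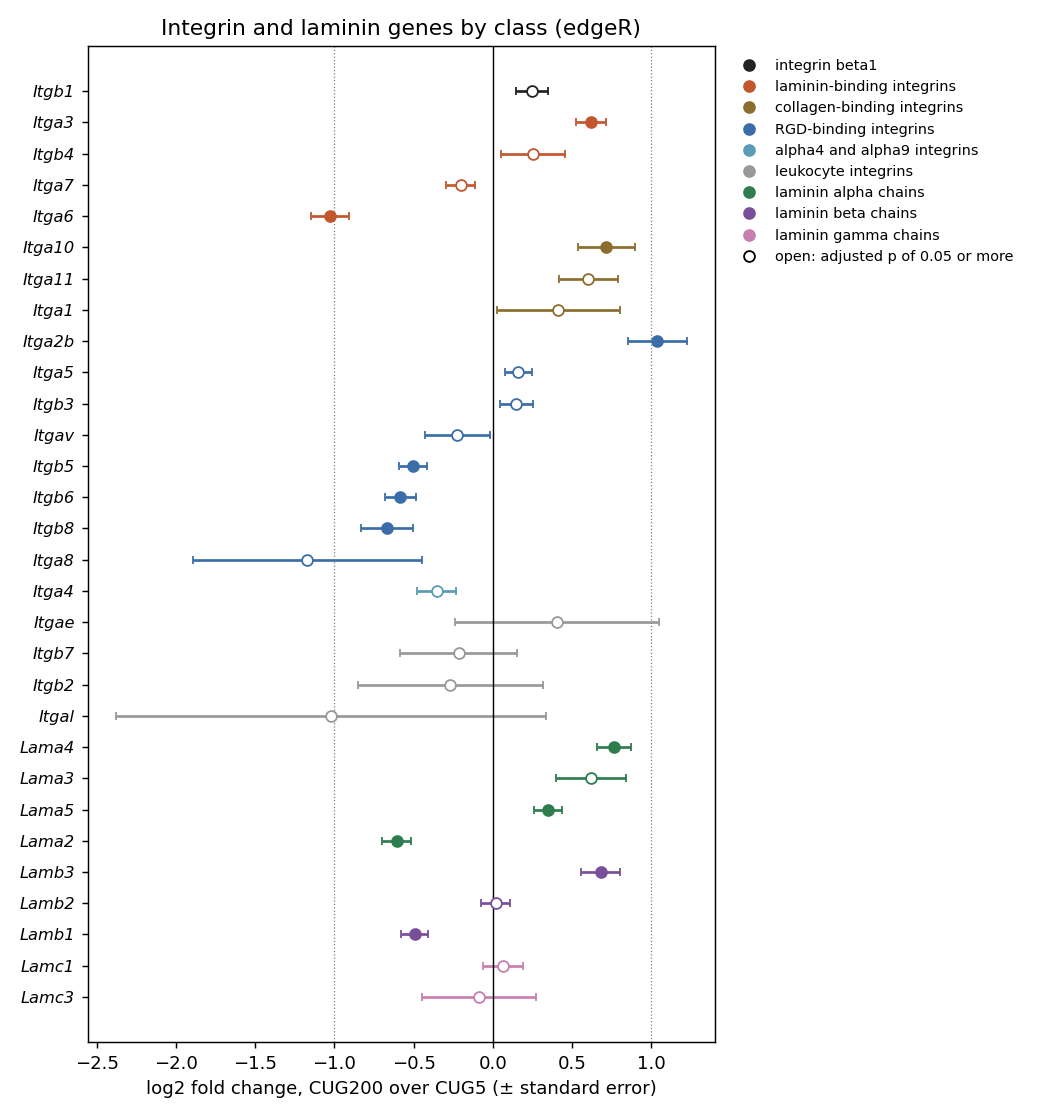
Log2 fold change of CUG200 over CUG5 (edgeR) with a standard error derived from the F statistic, for the 30 tested members, coloured by integrin ligand class or laminin chain. Filled points have an adjusted p under 0.05 and dotted lines mark -1 and 1; *Itga6* at -1.03 and *Itga2b* at 1.04 are the filled points beyond them.

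Laminin α chains carry the sites that cells bind, so they set which receptors a laminin engages. *Lama2*, the α chain of laminin-211 (chromosome 10, 26980036 to 27619758, minus strand, GRCm38), fell in CUG200. Its TMM-scaled level was 147, 140.2 and 148 CPM in CUG5 libraries 1, 2 and 3, and 85.9, 94.4 and 105 CPM in CUG200. All CUG200 libraries lay below all CUG5 libraries, and the log2 fold change was -0.61 ± 0.09 (SE; edgeR adjusted p = 0.00540). It kept its adjusted p under 0.05 in each of the 17 alternative analyses.

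*Lama4*, an α chain of vessel and developing muscle laminins (chromosome 10, 38965515 to 39110188, plus strand), rose. It was at 14.2, 11.997 and 12.8 CPM in CUG5 and at 22.3, 21.1 and 22.8 CPM in CUG200, with a log2 fold change of 0.76 ± 0.11 (SE; edgeR adjusted p = 0.00369). The groups were well apart, with the lowest CUG200 library 6.96 CPM above the highest CUG5 library. In limma on log2(TPM + 1), *Lama4* had a log2 fold change of 0.50 and did not pass (adjusted p = 0.0782). *Lama5*, the most abundant α chain here (chromosome 2, 180176373 to 180225859, minus strand), also rose, from 304, 286 and 283 CPM to 359, 349 and 404 CPM. Its change was small, 0.35 ± 0.09 on the log2 scale (SE; edgeR adjusted p = 0.0303). The adjusted p rose to between 0.0677 and 0.120 when any one of CUG5 libraries 1, 2 and 3 or CUG200 library 2 was left out. With library totals alone the edgeR adjusted p of *Lama5* was 0.0791. Its log2 fold change was 0.21 on log2(TPM + 1) and 0.31 with TMM scaling of TPM (limma adjusted p 0.417 and 0.0586). *Lama3*, the α chain of epithelial laminin-332, was at 62 to 89 counts in CUG5 and 118 to 122 counts in CUG200, without overlap, but did not pass (log2 fold change 0.62 ± 0.22, SE; edgeR adjusted p = 0.0944). *Lama1*, the α chain of early embryonic laminin, had at most 9 counts in any library.

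The balance among α chains was read from TPM within each library, which does not depend on library scaling and is given as a description. *Lama2* held 41.9%, 41.8% and 40.5% of the laminin α TPM in CUG5 and 24.6%, 25.7% and 26.6% in CUG200. *Lama5* held 53.3% ± 0.31 in CUG5 and 65.8% ± 0.65 in CUG200 (SD, n = 3), and *Lama4* held 5.13% ± 0.72 and 8.25% ± 0.72. The ratio of *Lama2* to *Lama5* TPM was 0.791, 0.781 and 0.758 in CUG5 and 0.369, 0.393 and 0.404 in CUG200. Within each group the ratio varied little, and the ranges of the groups lay far apart. The summed α chain TPM overlapped between groups, at 86.3 ± 9.36 and 81.5 ± 14.4 (SD, n = 3).

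Laminin β1 and β2 take alternative places in the trimer, and β2 is known for its place at the neuromuscular junction. *Lamb1* (chromosome 12, 31265234 to 31329644, plus strand) fell, from 113, 98.3 and 104 CPM in CUG5 to 74.2, 70.9 and 78.7 CPM in CUG200 (log2 fold change -0.49 ± 0.09, SE; edgeR adjusted p = 0.00823). *Lamb2* was at 70.5 ± 4.22 and 71.4 ± 5.88 CPM (SD, n = 3) and did not pass (0.02 ± 0.09, SE; edgeR adjusted p = 0.920), and the sign of this difference turned in 7 of the 17 alternatives. *Lamb3*, the β chain of laminin-332 (chromosome 1, 193207699 to 193343878, plus strand), rose from 10.1, 9.03 and 11.1 CPM to 15.1, 16.9 and 16.6 CPM (0.68 ± 0.12, SE; edgeR adjusted p = 0.00896). Its call was lost with limma on log2(TPM + 1), where the log2 fold change was 0.43 (adjusted p = 0.158). In the share of β chain TPM, *Lamb1* was at 45.9% ± 0.91 in CUG5 and 36.8% ± 2.21 in CUG200, and *Lamb3* at 6.55% ± 0.73 and 11.2% ± 0.18 (SD, n = 3). The ratio of *Lamb1* to *Lamb2* TPM was 0.936 to 0.980 in CUG5 and 0.625 to 0.756 in CUG200. Because laminin-332 is an epithelial laminin, 5 epithelial markers were read beside *Lamb3*. Their summed level was 5.42 to 6.40 CPM in CUG5 and 9.61 to 9.91 CPM in CUG200. *Krt14* rose (log2 fold change 0.85, edgeR adjusted p = 0.00517), while *Cdh1*, the other epithelial marker tested, did not pass (-0.26, edgeR adjusted p = 0.567), and *Epcam* and *Krt5* had 0 counts in every library. For *Lama4*, the 6 endothelial markers summed to 8.44 to 10.1 CPM in CUG5 and 3.86 to 5.71 CPM in CUG200. Nearly all of that was *Tek*, which fell (log2 fold change -0.95, edgeR adjusted p = 0.0107), while *Tie1* was at 0 in every library.

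*Lamc1*, the γ chain of most laminins, held 99.1% of the γ chain TPM in both groups. It was at 72.4 ± 12.5 CPM in CUG5 and 75.7 ± 6.37 CPM in CUG200 (SD, n = 3), with overlapping libraries (log2 fold change 0.06 ± 0.13, SE; edgeR adjusted p = 0.785). Its counts and its TPM did not rank the libraries alike. CUG5 library 1 had the highest level in CPM, 85.9, and the lowest TPM of its group, 21.6, so no direction is given for this gene. *Lamc3* had 38 to 87 counts in a library and did not pass (edgeR adjusted p = 0.903).

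**Figure D3:**
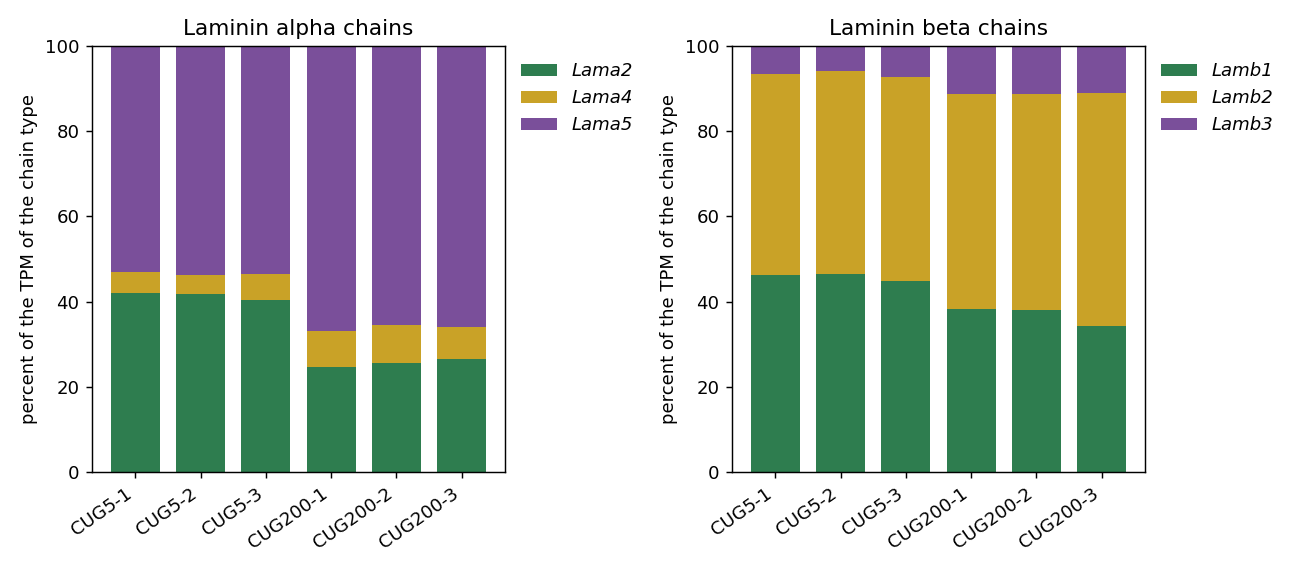
Percent of the summed TPM of laminin α chains (left) and β chains (right) held by each gene in each of the 6 libraries; chains that hold under 1% are not drawn. *Lama2* takes 40.5% to 41.9% in CUG5 and 24.6% to 26.6% in CUG200, and *Lamb1* takes 44.8% to 46.5% and 34.2% to 38.2%.

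The laminin-binding integrins are α3β1, α6β1, α7β1 and α6β4. *Itga6*, which pairs with β1 or β4 (chromosome 2, 71745616 to 71858416, plus strand), had the largest fall of any member that passed the test. It was at 32.2, 28.2 and 34.6 CPM in CUG5 and 13.8, 16.8 and 16.0 CPM in CUG200, and the highest CUG200 library lay at 59.5% of the lowest CUG5 library. Its log2 fold change was -1.03 ± 0.12 (SE; edgeR adjusted p = 0.00217). Without CUG5 library 3 or CUG200 library 1 it was -0.95 and -0.94, short of the cutoff of 1. On log2(TPM + 1) with limma it was -0.95, and with TMM scaling of TPM it was -0.85. The adjusted p of *Itga6* stayed under 0.05 in each of these. *Itga3*, whose α3β1 binds laminin-332 and laminin-511 (chromosome 11, 95044474 to 95076801, minus strand), moved the other way, from 28.1, 29.2 and 26.7 CPM to 39.7, 42.6 and 47.0 CPM (0.62 ± 0.09, SE; edgeR adjusted p = 0.00512). *Itga3* did not pass with limma on log2(TPM + 1) (0.50, adjusted p = 0.131). The ratio of *Itga6* to *Itga3* TPM was 1.30, 1.02 and 1.32 in CUG5 and 0.409, 0.436 and 0.358 in CUG200. In TPM, *Itga6* was thus above *Itga3* in each CUG5 library, though by little in library 2, and below it in each CUG200 library. In counts, which are not per length, the ratio in CUG5 library 2 was 0.966.

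*Itga7* was at 873, 810 and 860 CPM in CUG5 and 675, 722 and 812 CPM in CUG200. CUG200 library 3 reached into the CUG5 range, and the gene did not pass (log2 fold change -0.20 ± 0.09, SE; edgeR adjusted p = 0.183). Without that library the adjusted p was 0.0462. *Itgb4*, the β chain of the epithelial α6β4, was at 4.04 ± 0.31 and 4.82 ± 1.24 CPM (SD, n = 3; edgeR adjusted p = 0.453). *Itgb1* was at 1201, 1177 and 1131 CPM in CUG5 and 1516, 1442 and 1212 CPM in CUG200. The groups did not overlap, by a margin of 11.5 CPM, and the gene did not pass (0.25 ± 0.10, SE; edgeR adjusted p = 0.135). Here too the adjusted p went below the threshold, to 0.0215, without CUG200 library 3.

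**Figure D4:**
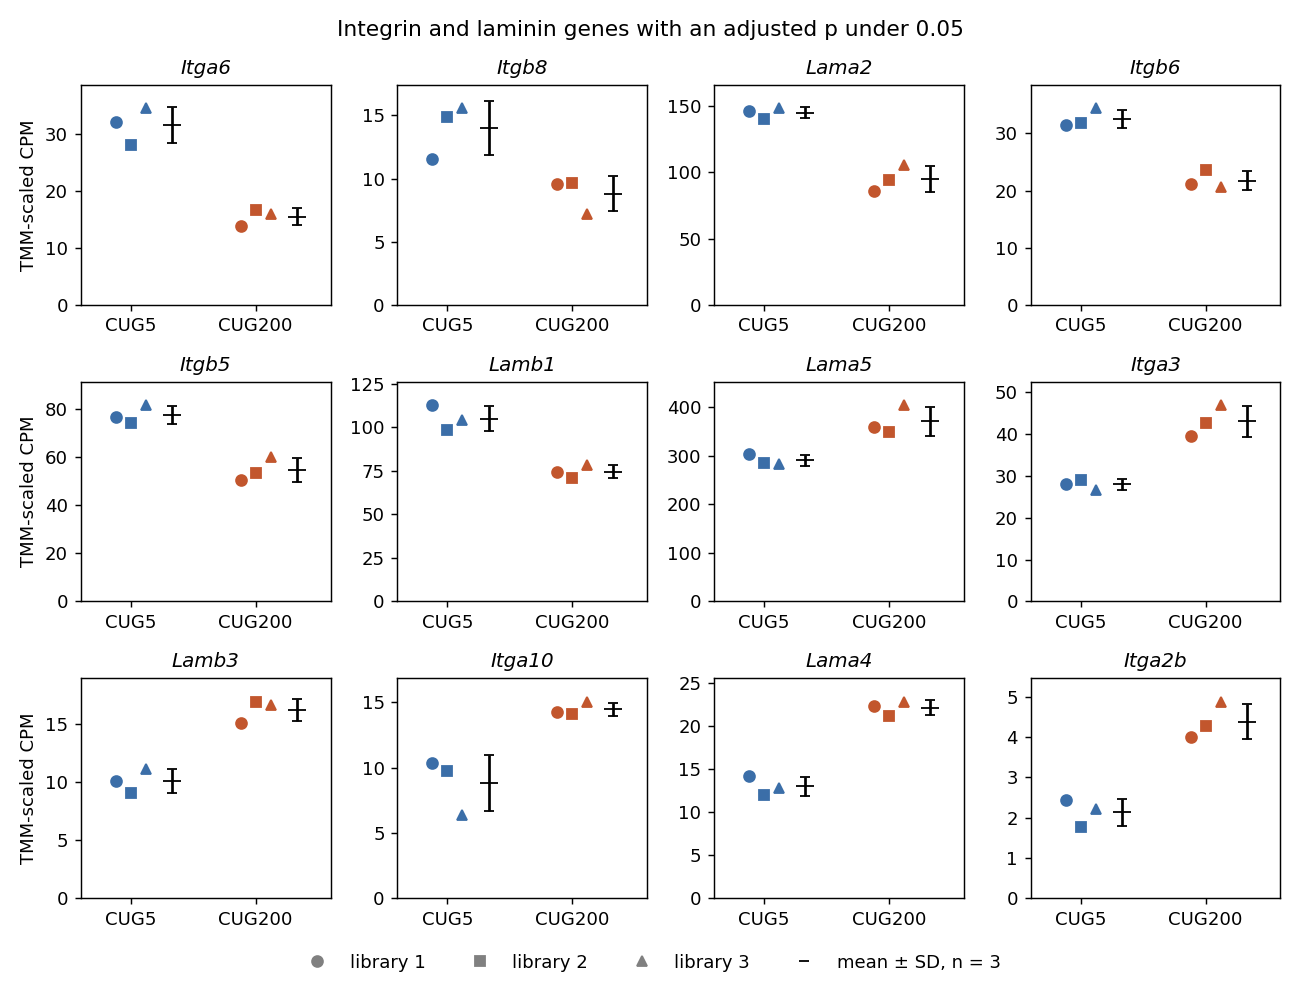
TMM-scaled CPM in each library for the 12 members with an edgeR adjusted p under 0.05, ordered from the lowest log2 fold change to the highest, with the mean and SD (n = 3) beside the points. Each axis starts at 0, and in every panel the 3 CUG200 libraries lie wholly above or wholly below the 3 CUG5 libraries. The genes were chosen by a test on these same libraries, which favours such a gap, and 37.2% of all genes tested show one. In TPM the groups overlap for *Itga10* (4.39 in CUG5 library 1, 4.38 in CUG200 library 1) and *Lama5* (51.3 and 47.0 in the same libraries).

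Of the 4 collagen-binding α chains, *Itga10* alone passed, and it rose. This receptor chain, best known from cartilage (chromosome 3, 96645584 to 96664519, plus strand), was at 10.3, 9.78 and 6.34 CPM in CUG5 and 14.3, 14.1 and 15.05 CPM in CUG200 (log2 fold change 0.72 ± 0.18, SE; edgeR adjusted p = 0.0302). CUG5 library 3 was the lowest. It shares exonic bases on the same strand with *Gm42957*, to which 67, 112 and 204 counts were given in CUG5 and 48, 88 and 64 in CUG200. With the counts of both genes summed, the log2 fold change was 0.23 and the adjusted p 0.157, so the value for *Itga10* is uncertain. The call was also lost without CUG5 library 2 or 3 or any one CUG200 library (adjusted p 0.0519 to 0.0846). *Itga11*, a fibrillar collagen receptor chain of fibroblasts, was at 3.11 ± 0.29 and 4.72 ± 0.88 CPM (SD, n = 3), without overlap (0.60 ± 0.19, SE; edgeR adjusted p = 0.0596; DESeq2 adjusted p = 0.0269). *Itga1* had 31 to 67 counts in a library and did not pass (edgeR adjusted p = 0.530), and *Itga2* had at most 10.

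Among the 8 genes of RGD-binding integrins, which bind fibronectin, vitronectin and latent TGF-β, 3 fell and 1 rose, beside 8.73% and 7.13% of all genes tested. The 3 that fell were all β partners of *Itgav*. *Itgb5*, of the vitronectin receptor αvβ5 (chromosome 16, 33829665 to 33949338, plus strand), went from 76.6, 74.3 and 81.6 CPM to 50.3, 53.5 and 60.2 CPM (log2 fold change -0.50 ± 0.09, SE; edgeR adjusted p = 0.00921). Without CUG5 library 3 its adjusted p was 0.0569. *Itgb6*, of the TGF-β activating αvβ6 (chromosome 2, 60598292 to 60722643, minus strand), went from 31.5, 31.9 and 34.4 CPM to 21.1, 23.6 and 20.6 CPM (-0.58 ± 0.10, SE; edgeR adjusted p = 0.00688). *Itgb8*, of αvβ8, which also activates TGF-β (chromosome 12, 119158022 to 119238802, minus strand), went from 11.5, 14.9 and 15.6 CPM to 9.59, 9.61 and 7.23 CPM (-0.67 ± 0.16, SE; edgeR adjusted p = 0.0279). Its groups came within 1.93 CPM of each other, and the call was lost without CUG5 library 2 or 3 or CUG200 library 2 (adjusted p 0.0657 to 0.115).

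*Itgb3*, the other β partner of αv measured here apart from β1, was at 40.7 ± 1.58 and 45.2 ± 5.86 CPM (SD, n = 3; edgeR adjusted p = 0.386). *Itgav* itself varied within groups, from 94.9 to 148 CPM in CUG5 and from 82.3 to 123 CPM in CUG200, and did not pass (-0.22 ± 0.20, SE; edgeR adjusted p = 0.523). *Itga5* was at 116 ± 2.76 and 129 ± 10.1 CPM (SD, n = 3; edgeR adjusted p = 0.243). In the share of integrin β TPM, *Itgb5* was at 7.68% ± 0.56 in CUG5 and 4.78% ± 0.67 in CUG200, *Itgb6* at 2.24% ± 0.13 and 1.35% ± 0.15, and *Itgb1* at 87.1% ± 0.67 and 91.1% ± 1.34 (SD, n = 3). *Itga8* had 4 to 43 counts and a wide error (-1.17 ± 0.72, SE; edgeR adjusted p = 0.317).

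*Itga2b*, the αIIb chain of the platelet fibrinogen receptor (chromosome 11, 102453297 to 102470122, minus strand), rose the most of the members that passed, at a low level. It was at 2.43, 1.76 and 2.20 CPM in CUG5 and 4.01, 4.27 and 4.87 CPM in CUG200 (log2 fold change 1.04 ± 0.19, SE; edgeR adjusted p = 0.00911). All CUG200 libraries were above all CUG5 libraries. Its fold change fell under the cutoff of 1 without CUG5 library 2 or CUG200 library 3, with a lowest value of 0.92, and its adjusted p stayed under 0.05 there. With limma on TPM the call was lost. The log2 fold change was 0.56 on log2(TPM + 1) and 0.69 on log2(TPM + 0.1) (limma adjusted p 0.163 and 0.158). With TMM scaling of TPM it was 0.64 (limma adjusted p = 0.0643). Of 5 platelet and megakaryocyte markers, *Pf4* had 0 counts in every library and none passed the filter. They summed to 0.114 to 1.87 CPM in CUG5, the highest value being *Gp1bb* in library 3, and 0.135 to 0.196 CPM in CUG200.

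*Itga4*, whose α4β1 binds VCAM-1 and fibronectin, was at 46.1 ± 6.05 CPM in CUG5 and 36.0 ± 4.19 CPM in CUG200 (SD, n = 3), with overlapping libraries (-0.35 ± 0.12, SE; edgeR adjusted p = 0.0905). The leukocyte integrin genes had low counts: *Itgae*, *Itgal*, *Itgb2* and *Itgb7* had 0 to 78 counts in a library, none passed the test, and *Itgam* had at most 13. *Itgal* had 0, 0 and 29 counts in CUG200 libraries 1, 2 and 3, and without library 3 its adjusted p was 0.0195 (edgeR), against 0.674 with it. Of 9 leukocyte markers, *Ptprc*, *Adgre1*, *Cd3e* and *Tyrobp* had 0 counts in every library, and the list summed to 3.53 to 4.35 CPM in CUG5 and 3.97 to 4.96 CPM in CUG200. *Cd68*, which is not restricted to leukocytes, was most of that sum. Of 4 Schwann cell markers, *Sox10* was at 0, and the sums were 3.29 to 4.05 and 3.16 to 3.61 CPM.

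The genes around these receptors were counted on 3 lists. Among 33 genes of integrin activation and actin linkage, 31 were tested, with 3 higher and 3 lower and a median log2 fold change of -0.035. These were 19.4% of those tested, near the 15.9% of all genes tested, so the list as a whole is given no direction. *Itgb1bp2*, which encodes the muscle protein melusin that binds the β1 tail, fell from 85.3 ± 9.11 to 51.8 ± 7.92 CPM (SD, n = 3; log2 fold change -0.72, edgeR adjusted p = 0.00842). It was the one gene of these 6 to pass without each library in turn. *Vcl*, the linker vinculin, fell (-0.46, edgeR adjusted p = 0.0250), and *Ptk2*, focal adhesion kinase, fell (-0.30, edgeR adjusted p = 0.0373). *Tns1* (0.56, edgeR adjusted p = 0.0278), *Rsu1* (0.52, edgeR adjusted p = 0.0387) and *Fermt2* (0.27, edgeR adjusted p = 0.0477), a tensin, a partner of the ILK complex and kindlin-2, rose. The number lower ranged from 1 to 8 and the number higher from 0 to 1 when single libraries were left out, with 8 lower without CUG200 library 3 and 0 higher without CUG5 library 3. On log2(TPM + 1) with limma, 0 were higher and 3 lower. At an unadjusted p under 0.05 these were 1 and 6, where edgeR gave 5 and 7. With library totals alone or the replicate block 1 was higher, and with the block 4 were lower. DESeq2 gave 5 higher and 5 lower. The talin genes *Tln1* and *Tln2* did not pass (edgeR adjusted p 0.302 and 0.624).

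Of 25 further basement membrane and laminin receptor genes, 23 were tested, and 12 fell and 2 rose, with a median log2 fold change of -0.33. Of all genes tested, 8.73% were lower and 7.13% higher. *Col4a1*, the main type IV collagen chain, fell from 72.4 ± 6.20 to 46.1 ± 1.55 CPM (-0.65, edgeR adjusted p = 0.00332). The nidogen *Nid2* fell (-0.61, edgeR adjusted p = 0.00585), as did *Dag1*, which encodes dystroglycan, the other laminin receptor of muscle (-0.52, edgeR adjusted p = 0.0115). *Col15a1* rose from 2.95 ± 0.23 to 8.601 ± 0.65 CPM (SD, n = 3; 1.54, edgeR adjusted p = 0.00114), and *Agrn*, agrin, rose (0.46, edgeR adjusted p = 0.0274). The call of *Agrn* was lost without any one CUG5 library or CUG200 library 2 (adjusted p up to 0.109), and with library totals or TPM. Perlecan, *Hspg2*, did not pass (0.24, edgeR adjusted p = 0.152). With single libraries left out, 5 to 11 genes of this list were lower, and *Dag1* lost its call without CUG5 library 1 or 2. The fewest were lower without CUG5 library 1. On log2(TPM + 1) with limma, 6 were lower and 1 higher (12 and 1 at an unadjusted p under 0.05, where edgeR gave 12 and 4).

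Of 34 ligands of the other integrins, 26 were tested, and 10 rose and 1 fell, with a median log2 fold change of 0.28. Beside them, 7.13% of all genes tested were higher and 8.73% lower. *Postn*, which encodes periostin, a ligand of αv integrins and the gene the study followed, rose from 47.8 ± 2.54 to 347 ± 11.2 CPM (SD, n = 3; 2.86, edgeR adjusted p = 3.5e-06). *Col1a1* (1.06, edgeR adjusted p = 0.000916), *Tnc* (0.95, edgeR adjusted p = 0.00388) and *Fn1* (0.50, edgeR adjusted p = 0.0379) rose, and *Ccn2* fell (-0.52, edgeR adjusted p = 0.0258). *Fn1* and *Ccn2* each lost the call without CUG5 library 1 or 3 or CUG200 library 2, among others, and 8 to 10 genes of the list were higher across the fits with a library left out. The number lower was 0 to 4 there, with 4 without CUG200 library 3. On log2(TPM + 1) with limma, 3 were higher and 0 lower. At an unadjusted p under 0.05 these were 9 and 2, where edgeR gave 13 and 2. With TMM-scaled TPM 9 were higher at an adjusted p under 0.05. Beside the 15.9% of all genes tested that passed, the shares were 19.4% for the linkage list, 60.9% for the basement membrane list and 42.3% for the ligand list. The lists were chosen with earlier results of these data known, and the ligand list holds *Postn*, so these shares are a description only.

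The promoter windows of RefSeq (GRCm38.p6; 250 bases before to 50 after the start) held 23 of the 35 members in 26 windows. The stretch just before the RefSeq start is shown for the α chains that moved apart, *Lama2* (chr10:27616943-27617042, minus strand) and *Lama5* (chr2:180225860-180225959, minus strand), 5′ to 3′ on the gene's strand. The stretches are unlike in place: that of *Lama5* ends where the gene begins in the files, while the *Lama2* start in RefSeq lies 2816 bases inside the gene as the files give it. Capitals mark GGGCGG, the GC box, on either strand.
Lama2: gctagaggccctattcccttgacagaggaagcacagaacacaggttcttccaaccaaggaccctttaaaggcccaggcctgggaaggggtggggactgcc
Lama5: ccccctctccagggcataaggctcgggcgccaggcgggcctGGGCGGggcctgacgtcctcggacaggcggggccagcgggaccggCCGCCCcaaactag
The *Lama5* stretch holds 2 GC boxes and the *Lama2* stretch none. The whole windows hold 4 and 1 GC boxes and are 72.7% and 50.3% G and C. Over both strands, GGGCGG was in 12 of the 26 member windows (46.2%), against 35.7% of 32851 windows of all genes. The E-box CAGCTG, a form bound by myogenic factors, was in 8 member windows (30.8%), against 16.3% of all windows. Those windows belong to *Itga1*, *Itga2b*, *Itga4*, *Itga5*, *Itga9*, *Itgax*, *Itgb5* and *Lamb3*, of which *Itga9* and *Itgax* had 0 counts in every library. The E-box CACCTG was in 8 member windows, against 20.2% of all windows. CAGACA, which holds a SMAD half-site, was in 8, against 21.04%. These matches describe letters in a window and not binding.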

How the data were processed

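Total RNA of C2C12 CUG5 and CUG200 cells at differentiation day 4 was analysed in 3 libraries per group. The authors trimmed reads with Trim Galore, aligned them to GRCm38 with HISAT2 and used StringTie; the strand setting, annotation and versions are not given in the sources used here. The authors deposited counts per gene, without normalization, and for each library the coverage signal, FPKM and TPM, which StringTie scales to length and library size. Each count column was matched to a sample by its name.

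Counts were filtered with filterByExpr (minimum count 10), scaled by TMM and tested with edgeR 4.0.16 (robust quasi-likelihood, no covariate, Benjamini-Hochberg over 19005 genes) in R 4.3.3. The SE beside a log2 fold change is its absolute value divided by the square root of the F statistic of that test. Shares and levels between genes used the deposited TPM. Alternatives were DESeq2 1.42.0, limma 3.58.1 on log2(TPM + 1) and log2(TPM + 0.1), other scalings and filters, counts divided by 4, counts summed over genes that share exons, a replicate block, FPKM in place of TPM for shares, and each library left out. TPM scaled by TMM was added after seeing the data. Replicates differed beyond counting noise (chi-square per degree of freedom 36.3 to 133), so each counted as 1 sample. The members, the 3 partner lists and the marker lists were chosen with earlier results of these data known. Every member is accounted for, and partner genes were named as examples of each direction. All 35 members had the same span in GENCODE M21. Exons of another gene overlap 3 members on the same strand and 8 on the opposite strand, and without a stated strand setting such reads cannot be told apart. The deposited tables hold no comparison columns, and all 6 count columns were used.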

Additional observations from a re-analysis of the deposited data

How the results depend on the processing

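All 12 members with an adjusted p under 0.05 kept their direction in the 17 alternatives run on them. *Itga6*, *Itgb6*, *Lama2* and *Lamb1* passed in all 17, *Itgb5* in 16, *Itga3*, *Lama4* and *Lamb3* in 15, *Itga2b* in 14, *Itgb8* in 10, and *Lama5* and *Itga10* in 9. On log2(TPM + 1) and on log2(TPM + 0.1), 0 members were higher with limma at an adjusted p under 0.05, against 6 with edgeR. On these scales 5 were lower, and *Itgb8* also lost its call. At an unadjusted p under 0.05, 5 were higher and 7 lower on either scale, where edgeR gave 9 and 7. The median log2 fold change of all genes was -0.062 and -0.094 there. With TPM scaled by TMM, which was chosen after seeing the data, 4 members were higher and 5 lower. Past both cutoffs, 0 members were higher under each of these 3 TPM analyses, against 1, and 0 were lower on log2(TPM + 1) with and without scaling. Without single libraries, 4 to 6 members were higher and 4 to 8 lower, and past both cutoffs 0 to 1 were higher and 0 to 2 lower, with the fewest called members kept (8 of 12) without CUG5 library 3. The sign of a difference that did not pass turned for *Lamb2* with library totals (-0.00382), on log2(TPM + 1) (-0.14), on log2(TPM + 0.1) (-0.15) and on scaled TPM (-0.041), and for *Lamc1* on these 3 TPM scales (-0.32, -0.33 and -0.22). Without single libraries it turned for *Lamb2* (from -0.054 to 0.067 over the 6 fits), *Lamc1* (-0.043 to 0.21), *Itgae* (-0.45 to 0.82), *Itgb2* (-0.75 to 0.24), *Itgb7* (-0.46 to 0.077) and *Lamc3* (-0.33 to 0.20). The cause was not tested. Among all genes, 1356 were higher and 1660 lower, against 427 and 816 on log2(TPM + 1), 434 and 850 on log2(TPM + 0.1), and 543 and 485 without CUG5 library 3.

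Libraries with the same number deviated together only weakly (r = 0.067, 0.022 and 0.026 across genes), so the numbers were not taken to pair them. With the replicate number as a block, 6 members were higher and 5 lower, and *Itgb8* had an adjusted p of 0.0519. Shares from FPKM equal those from TPM by construction. Without single libraries the difference in share (CUG200 minus CUG5) was -16.3 to -15.3 percentage points for *Lama2*, 12.2 to 12.8 for *Lama5* and -9.78 to -7.82 for *Lamb1*. Of the 5 members that failed the filter, *Itga2*, *Itgam* and *Lama1* were tested among all genes with at least 1 count and did not pass (edgeR adjusted p 0.687 to 0.993), and *Itga9* and *Itgax*, at 0 counts, could not be tested.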
